A study of Mus musculus with 12 samples.

Results

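Iron handling and ferroptosis control were followed through 10 named genes: Tfrc, Steap3, Fth1, Ftl1, Ncoa4, Slc40a1, Aco1, Ireb2, Acsl4 and Aifm2. They were taken from a list by name, matched through their Entrez IDs, and all 10 are among the 15802 genes that both deposited expression tables hold. Of these, 9 are among the 11707 genes with enough counts to be tested, and Steap3 is below that limit. The libraries come from mTECs, a mouse cell line that the labels name by this abbreviation alone, in a study of how fumarate hydratase (FH, gene Fh1) acts in renal fibrosis. FH is the mitochondrial enzyme that hydrates fumarate to malate. The 4 groups of 3 libraries are FH-silenced cells with TGF-β1 (KD+TGF-β1), control cells with TGF-β1 (NC+TGF-β1), FH-silenced cells in basal conditions (KD) and control cells in basal conditions (NC). TGF-β1 is a cytokine that drives matrix production in tubular cells. The labels give neither the silencing reagent nor the dose or length of the TGF-β1 treatment. All groups are from 1 cell line. Whether the 3 libraries of a group come from separate cultures is not given, so each p-value rests on the spread among these libraries alone, and that spread may be technical.

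Cells take up iron bound to transferrin through the transferrin receptor, keep it in ferritin shells of heavy and light chains, and release it through ferroportin. Iron regulatory proteins set the balance when iron is short: they bind a hairpin called the iron-responsive element (IRE), which blocks translation when it lies in a 5′ UTR and protects the mRNA from decay when it lies in a 3′ UTR. Ferroptosis is an iron-dependent cell death through peroxidation of membrane lipids, to which kidney tubular cells are known to be prone.

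The IREs are shown first because they set 4 of the 10 genes apart by sequence. A pattern of 27 bases was searched on the sense strand of GENCODE M21 transcripts (GRCm38): an unpaired C, an upper stem of 5 base pairs (G-T pairs allowed), the loop CAGTGN, and at least 3 pairs among the 5 positions of the lower stem. Capitals mark the unpaired C and the loop. The pattern lies in the 5′ UTR of Fth1 at chr19:9982733-9982759 on the plus strand, of Ftl1 at chr7:45459780-45459806 on the minus strand and of Slc40a1 at chr1:45925466-45925492 on the minus strand, each 1 time. In Tfrc it lies 4 times in the 3′ UTR, on the plus strand of chromosome 16, at chr16:32631220-32631246, chr16:32631599-32631625, chr16:32631664-32631690 and chr16:32631711-32631737.
Fth1, 5′ UTR: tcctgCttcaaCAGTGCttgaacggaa
Ftl1, 5′ UTR: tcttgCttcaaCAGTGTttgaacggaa
Slc40a1, 5′ UTR: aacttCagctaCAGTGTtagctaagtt
Tfrc, 3′ UTR, site 1: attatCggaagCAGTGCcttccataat
Tfrc, 3′ UTR, site 2: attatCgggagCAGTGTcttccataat
Tfrc, 3′ UTR, site 3: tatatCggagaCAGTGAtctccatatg
Tfrc, 3′ UTR, site 4: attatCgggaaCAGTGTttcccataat
The pattern was found in the 5′ UTR of 7 of 19586 protein-coding genes (0.0357%) and in the 3′ UTR of 33 of 20448 (0.161%). Tfrc was the 1 gene with 3 or more sites in its 3′ UTR. A match describes the letters and is no measure of binding.

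The libraries held 17651213 to 18462872 estimated counts each. Fh1 was at 17.2, 15.6 and 15.6 TPM (a level scaled for transcript length and depth) in KD+TGF-β1, 56.4, 56.0 and 56.1 TPM in NC+TGF-β1, 32.4, 35.9 and 33.9 TPM in KD and 58.2, 61.3 and 59.8 TPM in NC. Its log2 change on silencing was -1.81 (SE 0.051) with TGF-β1 and -0.83 (SE 0.045) in basal cells, so the silenced cells with TGF-β1 held less Fh1 mRNA than the basal ones. Of 9 markers of renal tubular epithelium, 7 were at 1 TPM or more in every group (Pax8, Cdh16, Epcam, Krt8, Krt18, Cdh1 and Aqp1), while the proximal tubule receptors Lrp2 and Cubn stayed below. The summed level of the 9 was 5770 to 5940 TPM in KD+TGF-β1, 5230 to 5430 TPM in NC+TGF-β1, 3540 to 3720 TPM in KD and 3330 to 3410 TPM in NC. Krt8 and Krt18 carried most of that sum: Krt8 averaged 2550 TPM in KD+TGF-β1, 2320 TPM in NC+TGF-β1, 1320 TPM in KD and 1170 TPM in NC. Pax8 went the other way, at 73.7 TPM in KD+TGF-β1, 83.9 TPM in NC+TGF-β1, 116 TPM in KD and 121 TPM in NC, as did Cdh16, at 223 TPM in KD+TGF-β1, 226 TPM in NC+TGF-β1, 300 TPM in KD and 295 TPM in NC. Of 4 thymic epithelial markers, Aire and Psmb11 are at 0 or not listed, while Foxn1 averaged 21.1 TPM in KD+TGF-β1, 24.2 TPM in NC+TGF-β1, 35.8 TPM in KD and 35.6 TPM in NC. Summed fibroblast markers (6 genes, Lum not listed) were at 1.6 to 2.07 TPM with TGF-β1 and 0.16 to 0.37 TPM without, and endothelial ones (4 genes, Kdr not listed) at 1.16 to 1.67 TPM with TGF-β1 and 0.23 to 0.46 TPM without. Blood and macrophage markers (7 genes, Hbb-bs not listed) summed to 37.2 to 44.4 TPM in all libraries. Csf1r alone made up most of it, at 35.8 TPM in KD+TGF-β1, 40.6 TPM in NC+TGF-β1, 32.6 TPM in KD and 34.9 TPM in NC, while Ptprc, Adgre1, Lyz2 and Hba-a1 averaged 0 to 0.263 TPM in every group. The part of any of these markers in the results was not tested. On the second principal component, which held 3.89% of the variance, NC replicate 1 stood apart at 20.1, against -8.1 to 7.2 for the other 11 libraries. KD+TGF-β1 replicate 1 held 328 counts over 9 markers of pluripotent cells that had 0 counts in the other 11 libraries. Results on the 10 genes that change without either library are given with and without it.

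Per length, the ferritin chains were the most abundant of the 10 mRNAs in every group. Ftl1 averaged 8914 TPM in KD+TGF-β1, 8315 TPM in NC+TGF-β1, 5789 TPM in KD and 5226 TPM in NC, and ranked 2 to 6 among all genes in the TGF-β1 libraries and 16 to 19 in the basal ones. Fth1 came next, followed in basal cells by Tfrc at 123 TPM in KD and 124 TPM in NC. With TGF-β1 the order below the ferritins differed: Ncoa4 and Acsl4 came next, and Tfrc was sixth in KD+TGF-β1 and seventh in NC+TGF-β1. Neighbours in this order whose libraries overlapped were Ncoa4 and Acsl4, Ireb2 and Tfrc, and Tfrc and Aco1 in KD+TGF-β1, and Ireb2 and Aco1 in NC+TGF-β1. In KD the overlapping neighbours were Ireb2 and Aifm2. In NC they were Ncoa4 and Acsl4, Acsl4 and Aco1, Aco1 and Ireb2, and Ireb2 and Aifm2. Slc40a1 was ninth and Steap3 last in all 4 groups.

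**Figure D1:**
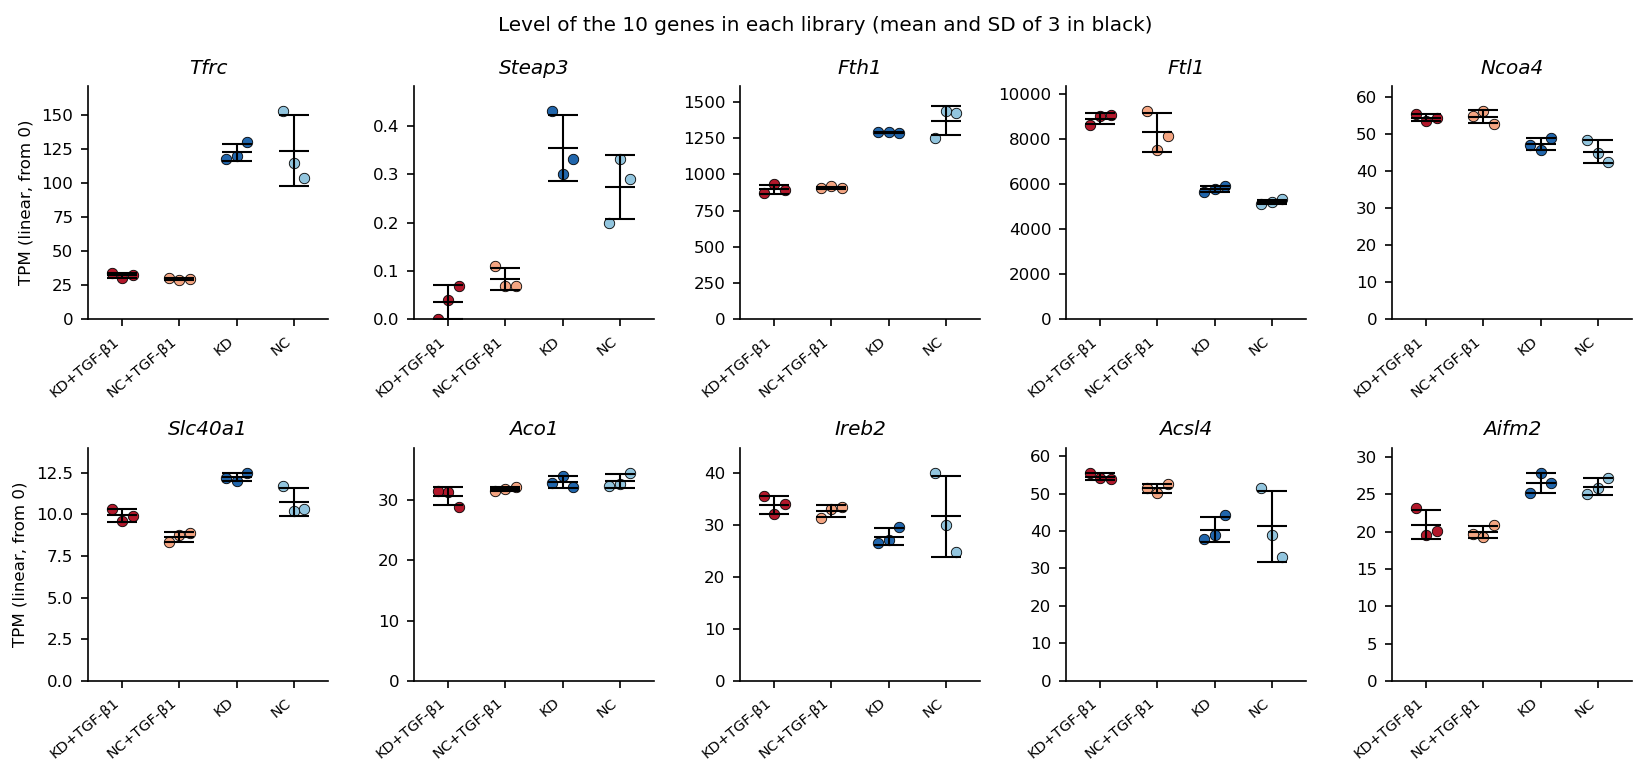
Levels of the 10 genes in TPM (linear axes from 0, a different scale for each gene) in the 3 libraries of each group, as points in replicate order, with the mean and SD in black. Tfrc is at 29.0 to 33.9 TPM in the 6 libraries with TGF-β1 and at 104 to 153 TPM in the 6 basal ones, and NC replicate 1 is the highest NC library for Tfrc, Ireb2 and Acsl4.

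The comparison of TGF-β1 with basal libraries asks how the cytokine moves these genes in cells with and without silencing. Of the 9 genes tested, 8 changed in KD cells and 7 in NC cells, at an adjusted p under 0.05 in edgeR's quasi-likelihood test with Benjamini-Hochberg adjustment over all genes. The share of all tested genes that changed was 65% in KD cells and 64.1% in NC cells, so most genes were called in either comparison. Ftl1, Ncoa4 and Acsl4 rose in both (3 genes, against 31.4% of all genes in KD and 29.4% in NC). Tfrc, Fth1, Slc40a1 and Aifm2 fell in both, and Aco1 fell in KD cells (5 lower in KD, against 33.7% of all genes, and 4 in NC, against 34.8%). The median log2 change of the 9 was -0.103 in KD cells and -0.042 in NC cells, beside -0.014 in KD cells and -0.032 in NC cells over all genes tested. The basal and the TGF-β1 libraries were deposited in separate tables that list different transcripts, so the cytokine and any other difference between these 2 sets cannot be told apart. As in any bulk RNA measurement, fewer cells of a type and less RNA per cell cannot be told apart either.

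Among the 9 tested genes, Tfrc, the transferrin receptor, moved most. Its gene lies at chr16:32608920-32632794 on the plus strand (GRCm38). It was at 33.9, 30.5 and 32.5 TPM in KD+TGF-β1 and 118, 120 and 130 TPM in KD. In control cells it was at 30.3, 29.0 and 29.9 TPM in NC+TGF-β1 and 153, 115 and 104 TPM in NC. No library with TGF-β1 came near a basal one. The log2 change was -1.93 (SE 0.106, adjusted p = 1.28e-09) in KD cells, which is 3.82-fold lower, and -2.07 (SE 0.107, adjusted p = 6.74e-10) in NC cells, 4.2-fold lower. Leaving out each library in turn kept the change in NC cells between -2.14 and -1.89. The same RefSeq transcript, NM_011638, carried 90.5% to 95.9% of the Tfrc level in every library.

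Steap3, a ferrireductase of the endosome that reduces the iron released from transferrin, was close to undetected. Its gene lies at chr1:120190757-120272705 on the minus strand. The counts were 0, 1 and 2 in KD+TGF-β1, 3, 2 and 2 in NC+TGF-β1, 13, 9 and 10 in KD and 6, 10 and 9 in NC. Every TGF-β1 library held fewer Steap3 counts than every basal one. With so few counts no test was made and no fold is given.

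The ferritin chains moved in opposite directions. Fth1, the heavy chain, which oxidises iron for storage, was at 870, 933 and 890 TPM in KD+TGF-β1 and 1289, 1290 and 1284 TPM in KD. It was at 904, 917 and 904 TPM in NC+TGF-β1 and 1253, 1437 and 1421 TPM in NC. The groups with and without TGF-β1 did not overlap, and the log2 change was -0.50 (SE 0.047, adjusted p = 4.23e-07) in KD cells and -0.59 (SE 0.047, adjusted p = 8.4e-08) in NC cells. The gene lies at chr19:9980598-9985098 on the plus strand.

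Ftl1, the light chain, which helps the iron core to form, was at 8627, 9028 and 9088 TPM in KD+TGF-β1 and 5661, 5778 and 5928 TPM in KD. In control cells it was at 9255, 7546 and 8146 TPM in NC+TGF-β1 and 5139, 5207 and 5332 TPM in NC. All 6 TGF-β1 libraries were above all 6 basal ones. The log2 change was 0.64 (SE 0.057, adjusted p = 2.07e-07) in KD cells and 0.68 (SE 0.057, adjusted p = 1.24e-07) in NC cells. The gene, at chr7:45457944-45459884 on the minus strand, has near-identical copies. The copy Ftl1-ps2 was assigned 229, 247 and 235 counts in KD+TGF-β1, 168, 159 and 181 in NC+TGF-β1, 96, 105 and 114 in KD and 102, 114 and 78 in NC, and reads shared between such copies make the split uncertain.

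The level of Ftl1 over that of Fth1 therefore parted the libraries by treatment. This ratio of TPM was 9.94 ± 0.272 in KD+TGF-β1 and 4.5 ± 0.113 in KD (SD, n = 3 each). It was 9.16 ± 1.02 in NC+TGF-β1 and 3.83 ± 0.247 in NC (SD, n = 3 each). Within the basal libraries the 3 KD values, 4.39 to 4.62, lay above the 3 NC values, 3.62 to 4.1, while the KD+TGF-β1 and NC+TGF-β1 values overlapped. Both chains together made up 0.95% to 0.998% of all TPM in KD+TGF-β1, 0.846% to 1.02% in NC+TGF-β1, 0.695% to 0.721% in KD and 0.639% to 0.675% in NC. The summed ferritin mRNA was thus higher with TGF-β1, carried by Ftl1. Fth1 over Tfrc was 27.9 ± 2.53 in KD+TGF-β1, 30.5 ± 0.947 in NC+TGF-β1, 10.5 ± 0.577 in KD and 11.5 ± 2.9 in NC, since Tfrc fell further than Fth1.

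**Figure D2:**
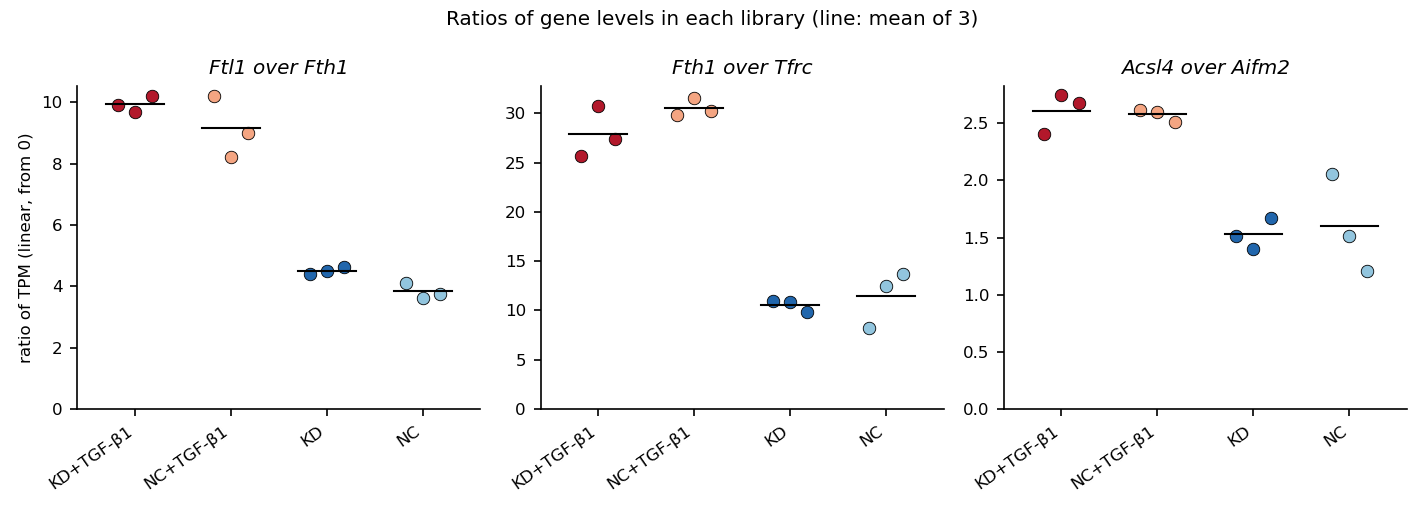
Ratios of TPM in each library (points) with the mean of 3 (line), on linear axes from 0, for Ftl1 over Fth1, Fth1 over Tfrc, and Acsl4 over Aifm2. Ftl1 over Fth1 lies between 8.23 and 10.2 in the TGF-β1 libraries and between 3.62 and 4.62 in the basal ones, and the mean of Acsl4 over Aifm2 is 2.61 in KD+TGF-β1, 2.58 in NC+TGF-β1, 1.53 in KD and 1.6 in NC.

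Ncoa4 is the receptor that delivers ferritin to the lysosome, where its iron is freed. It was at 55.5, 53.5 and 54.5 TPM in KD+TGF-β1 and 47.1, 45.8 and 49.0 TPM in KD. In control cells it was at 55.0, 56.3 and 52.9 TPM in NC+TGF-β1 and 48.5, 45.0 and 42.4 TPM in NC. The shift was small, but the groups did not overlap. The log2 change was 0.19 (SE 0.045, adjusted p = 0.00186) in KD cells and 0.27 (SE 0.045, adjusted p = 0.000127) in NC cells. The gene lies at chr14:32159865-32179855 on the plus strand.

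Slc40a1, ferroportin, is the known exporter of iron from mammalian cells. Its level was 10.3, 9.57 and 9.9 TPM in KD+TGF-β1 and 12.2, 12.0 and 12.5 TPM in KD. It was 8.32, 8.78 and 8.87 TPM in NC+TGF-β1 and 11.7, 10.2 and 10.3 TPM in NC. Each TGF-β1 group lay below its basal group without overlap, with a log2 change of -0.30 (SE 0.062, adjusted p = 0.000629) in KD cells and -0.32 (SE 0.064, adjusted p = 0.000506) in NC cells. The ratio of Tfrc to Slc40a1 in TPM was 3.25 ± 0.0605 in KD+TGF-β1, 3.44 ± 0.181 in NC+TGF-β1, 10.1 ± 0.364 in KD and 11.5 ± 1.48 in NC (SD, n = 3 each). It compares mRNA levels, and iron flow was not measured. The gene lies at chr1:45908068-45926523 on the minus strand.

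The iron regulatory proteins bind the IREs shown above. Of their mRNAs, Aco1 moved little, and Ireb2 was higher with TGF-β1 in KD cells without passing the threshold in the fit over all libraries. Aco1 encodes IRP1, which is cytosolic aconitase when it holds an iron-sulfur cluster, and lies at chr4:40143081-40198338 on the plus strand. It was at 31.6, 31.4 and 28.9 TPM in KD+TGF-β1, 31.6, 31.9 and 32.2 TPM in NC+TGF-β1, 32.8, 34.1 and 32.2 TPM in KD and 32.3, 32.7 and 34.6 TPM in NC. All 12 libraries were within 28.9 to 34.6 TPM. Its log2 change with TGF-β1 was -0.10 in KD cells (SE 0.041, adjusted p = 0.0414). In NC cells it was -0.04 (SE 0.041, adjusted p = 0.392). The call in KD cells held in 7 of 12 fits that left out 1 library. It was lost without KD replicate 1 (adjusted p = 0.0833), KD replicate 2 (0.123), NC+TGF-β1 replicate 3 (0.0519), KD+TGF-β1 replicate 1 (0.0505) or KD+TGF-β1 replicate 3 (0.172), and in DESeq2 (0.192).

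Ireb2 encodes IRP2, which is degraded when iron is plentiful, and lies at chr9:54863789-54912530 on the plus strand. It was at 35.5, 32.1 and 34.1 TPM in KD+TGF-β1 and 26.5, 27.1 and 29.7 TPM in KD. It was at 31.3, 33.1 and 33.5 TPM in NC+TGF-β1 and 40.1, 30.0 and 24.9 TPM in NC. The KD groups did not overlap and the NC groups did, because NC spanned 24.9 to 40.1 TPM. The log2 change was 0.28 in KD cells (SE 0.12, adjusted p = 0.0542) and 0.04 in NC cells (SE 0.119, adjusted p = 0.803). Without NC replicate 1, which holds the 40.1 TPM, the values were 0.28 (SE 0.055, adjusted p = 0.000171) in KD cells and 0.25 (SE 0.062, adjusted p = 0.00186) in NC cells. Without NC replicate 3 the change in NC cells was -0.07 (adjusted p = 0.474) and that in KD cells was 0.29 (adjusted p = 0.00321), so the Ireb2 result rests on which NC libraries are counted.

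Acsl4 and Aifm2 act on opposite sides of ferroptosis and moved in opposite directions, while the wider ferroptosis lists, given below, went both ways. Acsl4 charges polyunsaturated fatty acids with coenzyme A so that they enter the phospholipids that can peroxidise, and lies at chrX:142317993-142390535 on the minus strand. It was at 55.6, 54.1 and 53.8 TPM in KD+TGF-β1 and 37.9, 39.0 and 44.3 TPM in KD, without overlap. In control cells it was at 51.6, 50.1 and 52.5 TPM in NC+TGF-β1 and 51.6, 39.0 and 33.1 TPM in NC, where NC replicate 1 reached the TGF-β1 range. The log2 change was 0.43 (SE 0.11, adjusted p = 0.00357) in KD cells and 0.31 (SE 0.11, adjusted p = 0.0252) in NC cells. Without NC replicate 1 the change in NC cells was 0.50 (SE 0.0571, adjusted p = 2.69e-07). It was no longer called without NC replicate 2 (adjusted p = 0.0917), NC+TGF-β1 replicate 1 (0.0542), NC+TGF-β1 replicate 2 (0.0522) or NC+TGF-β1 replicate 3 (0.0653).

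Aifm2, also called FSP1, regenerates ubiquinol, which stops lipid peroxidation, and lies at chr10:61715263-61739260 on the plus strand. It was at 23.1, 19.6 and 20.1 TPM in KD+TGF-β1 and 25.1, 27.9 and 26.5 TPM in KD. It was at 19.7, 19.3 and 20.9 TPM in NC+TGF-β1 and 25.0, 25.8 and 27.2 TPM in NC. Every TGF-β1 library lay below every basal one, with a log2 change of -0.28 (SE 0.055, adjusted p = 0.000471) in KD cells and -0.32 (SE 0.055, adjusted p = 0.000174) in NC cells. Isoform shares, which were not tested, also differed for both genes. The Acsl4 transcript NM_001033600 made up 29.3% ± 2.55 of the gene's TPM in KD+TGF-β1, 28.0% ± 5.99 in NC+TGF-β1, 21.5% ± 1.03 in KD and 18.2% ± 2.68 in NC. For the Aifm2 transcript NM_001284300 the shares were 16.3% ± 2.8 in KD+TGF-β1, 14.5% ± 6.99 in NC+TGF-β1, 31.8% ± 3.35 in KD and 24.0% ± 8.81 in NC (SD, n = 3 each). Between NC+TGF-β1 and NC the Aifm2 shares overlapped.

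**Figure D3:**
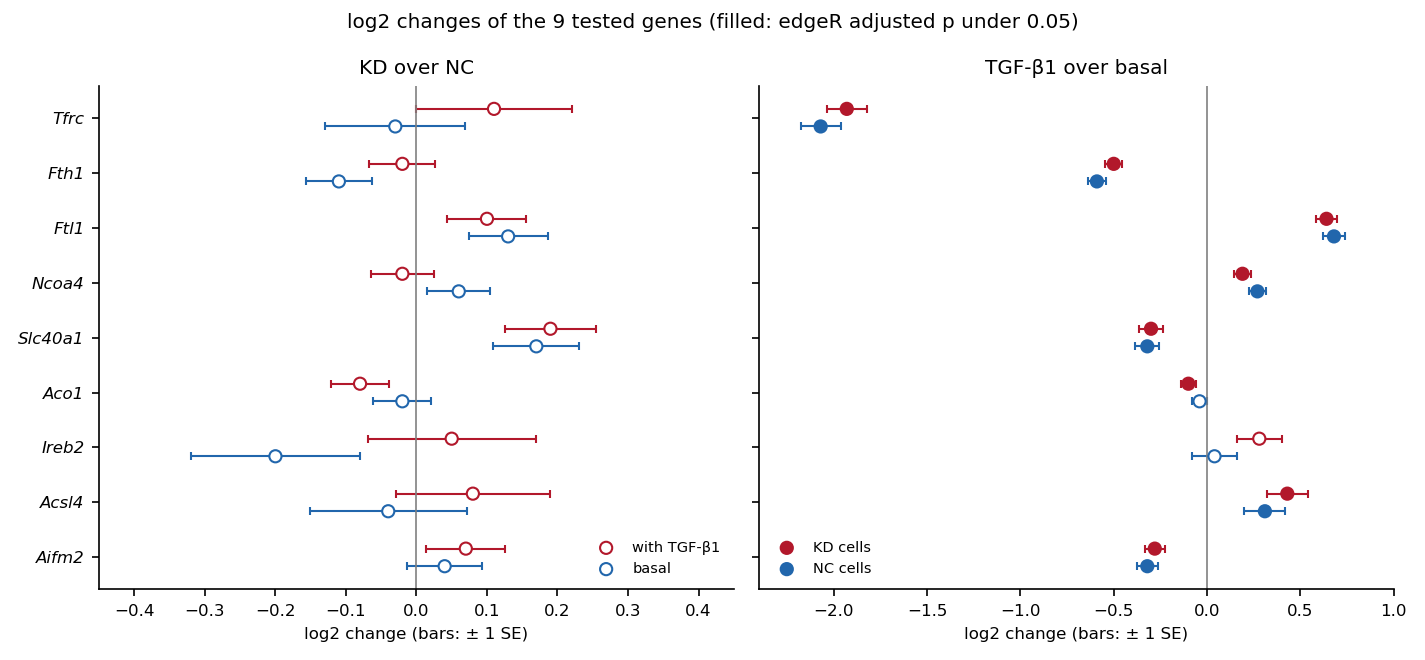
log2 changes of the 9 tested genes, with bars of 1 SE, for KD over NC on the left (with TGF-β1 and basal) and TGF-β1 over basal on the right (in KD and NC cells); the panels have different scales. Filled points have an edgeR adjusted p under 0.05: none on the left, where all values lie between -0.20 and 0.19, and on the right 8 in KD and 7 in NC cells, where Tfrc reaches -2.07.

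FH silencing, the study's main question, moved none of the 9 tested genes past the threshold. With TGF-β1, 0 of 9 were called between KD and NC cells, against 11.4% of all genes tested. DESeq2 also called 0, and 1 gene, Slc40a1, had an unadjusted p under 0.05 (24.7% of all genes). In basal cells 0 of 9 were called, against 3.66% of all genes. DESeq2 called 0 there too, and Fth1, Ftl1 and Slc40a1, 3 genes, had an unadjusted p under 0.05 (17.3% of all genes). The median log2 change of the 9 was 0.074 with TGF-β1 and -0.018 in basal cells, beside 0.002 with TGF-β1 and -0.015 in basal cells over all genes tested. The TPM of the groups did not overlap for 4 genes with TGF-β1 (31.4% of all genes), namely Tfrc, Slc40a1 and Acsl4, higher in KD, and Aco1, lower in KD. In basal cells they did not overlap for 2 (22.6% of all genes), Ftl1 and Slc40a1, both higher in KD.

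Slc40a1 was the 1 gene of the set whose KD libraries lay above the NC libraries in both settings, from the values given above. How many of all genes tested did so in both settings was not counted. The log2 change of Slc40a1 was 0.19 with TGF-β1 (SE 0.065, adjusted p = 0.0754) and 0.17 in basal cells (SE 0.061, adjusted p = 0.156), so neither passed. For Ftl1 the change was 0.10 with TGF-β1 (SE 0.056, adjusted p = 0.335) and 0.13 in basal cells (SE 0.056, adjusted p = 0.248). Without NC+TGF-β1 replicate 1, the highest Ftl1 library of its group, the value with TGF-β1 was 0.18 (adjusted p = 0.0176). Fth1 was at -0.02 with TGF-β1 (SE 0.047, adjusted p = 0.834) and -0.11 in basal cells (SE 0.047, adjusted p = 0.257).

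Tfrc, which TGF-β1 moved most among the 9 tested genes, was at 0.11 with TGF-β1 (SE 0.11, adjusted p = 0.591) and -0.03 in basal cells (SE 0.099, adjusted p = 0.93) between KD and NC. Ncoa4 was at -0.02 with TGF-β1 (SE 0.045, adjusted p = 0.833) and 0.06 in basal cells (SE 0.045, adjusted p = 0.575). The iron regulatory proteins did not pass either. Aco1 was at -0.08 (SE 0.041, adjusted p = 0.264) with TGF-β1 and -0.02 (SE 0.041, adjusted p = 0.873) in basal cells, and Ireb2 at 0.05 (SE 0.119, adjusted p = 0.857) with TGF-β1 and -0.20 (SE 0.12, adjusted p = 0.439) in basal cells. Of the ferroptosis genes, Acsl4 was at 0.08 (SE 0.109, adjusted p = 0.726) with TGF-β1 and -0.04 (SE 0.111, adjusted p = 0.893) in basal cells, and Aifm2 at 0.07 (SE 0.056, adjusted p = 0.464) with TGF-β1 and 0.04 (SE 0.053, adjusted p = 0.799) in basal cells.

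The basal comparison depended on NC replicate 1. Its TPM over the mean of NC replicates 2 and 3 was 1.46 for Ireb2, 1.43 for Acsl4 and 1.4 for Tfrc, and 0.877 for Fth1. The same library's gene deviations from the group mean rose with mRNA length (Spearman's rho across genes 0.201, against -0.181 to 0.152 in the other libraries), and the part of length in these values was not tested. Without it, 2 of the 9 genes were called in basal cells: Fth1 was lower in KD (log2 change -0.17, SE 0.0334, adjusted p = 0.00505) and Slc40a1 higher (0.24, SE 0.0634, adjusted p = 0.0403). Tfrc then stood at 0.15 (SE 0.0442, adjusted p = 0.0589), Acsl4 at 0.15 (SE 0.0576, adjusted p = 0.162) and Ireb2 at 0.01 (SE 0.0624, adjusted p = 0.935), each with the sign turned from that over all libraries. With TGF-β1, leaving out the same library changes the shared fit but none of the libraries compared, and Slc40a1 passed there at 0.19 (adjusted p = 0.0422). Without NC replicate 3 in its place, Ireb2 was called in basal cells at -0.31 (adjusted p = 0.0417). Leaving out KD+TGF-β1 replicate 1 gave 0 calls among the 9 genes in either silencing comparison. Fth1 with TGF-β1 then stood at 0.01 (SE 0.0525, adjusted p = 0.965), against -0.02 over all libraries.

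**Figure D4:**
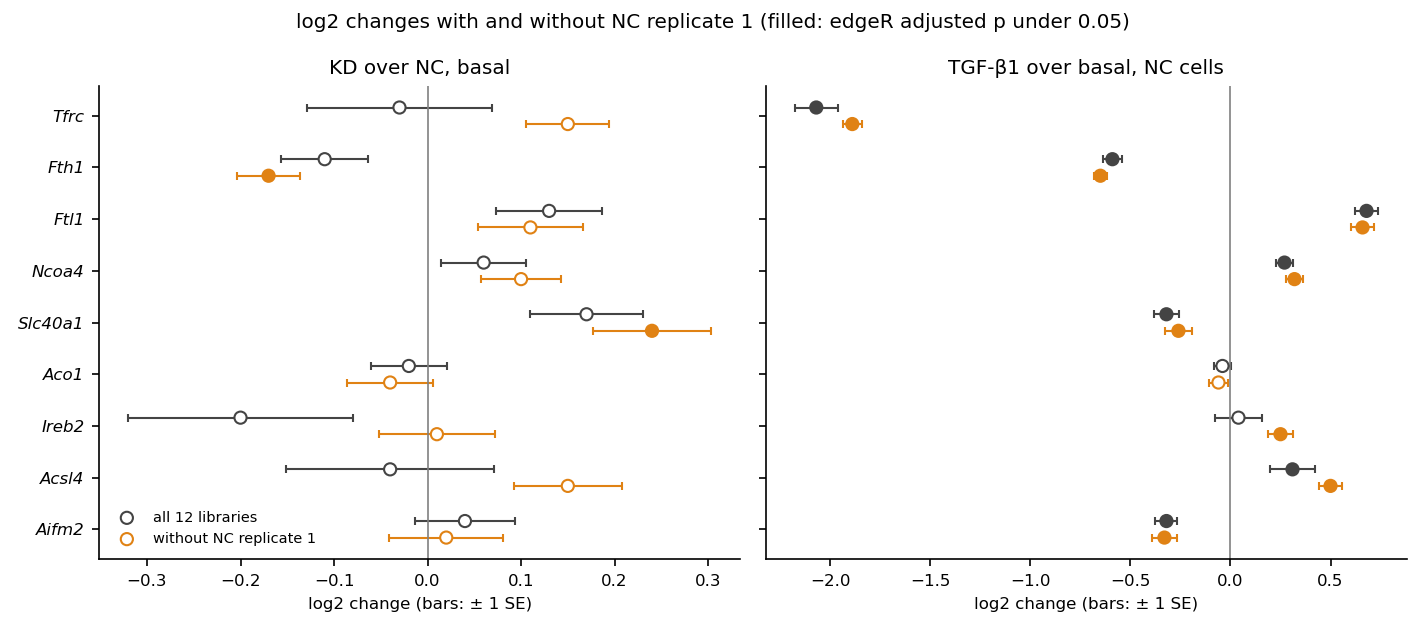
log2 changes of the 9 tested genes, with bars of 1 SE, over all 12 libraries (grey) and without NC replicate 1 (orange); filled points have an edgeR adjusted p under 0.05, and the panels have different scales. In basal cells (left) Fth1 at -0.17 and Slc40a1 at 0.24 are called without that library, and with TGF-β1 over basal in NC cells (right) Ireb2 at 0.25 joins the 7 genes called.

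The response to TGF-β1 was not shown to differ between KD and NC cells for any of the 9 genes. The test of that difference called 0 of 9, against 0.888% of all genes tested. DESeq2 called 0, and 0 had an unadjusted p under 0.05 (11.3% of all genes). The difference for Ireb2 was 0.24 (SE 0.169, adjusted p = 0.639) and for Tfrc 0.14 (SE 0.147, adjusted p = 0.78). All 9 values lay between -0.08 and 0.24 on the log2 scale over all libraries, with a median of 0.04. Without NC replicate 1 they lay between -0.13 (Ncoa4) and 0.15 (Fth1), and Ireb2 was at 0.03. Tfrc (-0.04), Slc40a1 (-0.05) and Acsl4 (-0.08) then had the opposite sign. Without KD+TGF-β1 replicate 1, Aifm2 turned from 0.04 to -0.02. No fit that left out 1 library called any of the 9.

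For naming similar genes, symbols that start with Gm, LOC or NA, or hold Rik, were left out. Among the rest, the genes most like each of the 9 over the 12 libraries were named by the highest Pearson correlation of log2 CPM. They were Sema3c for Tfrc (r = 0.998), Vsnl1 for Fth1 (0.992), Adamts4 for Ftl1 (0.992) and Snap23 for Ncoa4 (0.974). For Slc40a1 the closest was Slc44a3 (0.985), for Aco1 Ptdss2 (0.915), for Ireb2 Zfp397 (0.984), for Acsl4 Zmym2 (0.995) and for Aifm2 Pdzd11 (0.981). All points share the same 12 libraries, whose first principal component, 78% of the variance, parted TGF-β1 from basal. Accordingly 2107 genes had r above 0.9 with Tfrc and 1824 with Fth1, but 97 with Ireb2 and 4 with Aco1. Among the members, Tfrc went with Fth1 (r = 0.94) and against Ftl1 (r = -0.96), and Ireb2 went with Acsl4 (r = 0.86). Ireb2 and Acsl4 both stood high in NC replicate 1, at 1.46 and 1.43 times the mean of NC replicates 2 and 3. The part of that library in their correlation was not tested.

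The wider pathway was read from lists of 124 other iron and ferroptosis genes, of which 103 were tested. With TGF-β1, silencing raised 10 and lowered 12 of them (21.4%, against 11.4% of all genes), and in basal cells it raised 2 and lowered 6 (7.77%, against 3.66%). Of the 8 basal calls, 7 were lost in a fit of the KD and NC libraries alone, which kept Pcbp2 (adjusted p = 0.00178). The poly(C)-binding proteins Pcbp1 and Pcbp2, which carry iron to ferritin, were 2 of the 3 tested genes of storage and turnover, and both fell in both settings. Pcbp2 was at 458, 453 and 446 TPM in KD+TGF-β1 and 612, 557 and 587 TPM in NC+TGF-β1 (log2 change -0.37, SE 0.031, adjusted p = 9.17e-06). It was at 451, 440 and 457 TPM in KD and 589, 578 and 560 TPM in NC (log2 change -0.37, SE 0.031, adjusted p = 1.48e-05). Pcbp1 fell by 0.22 with TGF-β1 (SE 0.047, adjusted p = 0.00834) and by 0.19 in basal cells (SE 0.046, adjusted p = 0.0335). The basal call of Pcbp1 held in 8 of 12 fits that left out 1 library, and was lost without NC replicate 2 or 3 or KD replicate 1 or 2 (adjusted p up to 0.156).

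Of 4 tested export genes other than Slc40a1, ceruloplasmin (Cp), the ferroxidase that works with ferroportin, fell in both settings, by 0.25 with TGF-β1 (SE 0.038, adjusted p = 0.000997) and by 0.15 in basal cells (SE 0.036, adjusted p = 0.0378). The basal call of Cp held in 2 of 12 fits that left out 1 library. Of 13 heme genes, Fech, which inserts iron into heme, fell by 0.25 with TGF-β1 (SE 0.045, adjusted p = 0.00271) and by 0.19 in basal cells (SE 0.046, adjusted p = 0.0372). The basal call of Fech held in 4 of 12 such fits. Hmox1, which breaks heme down and frees its iron, rose with TGF-β1 (45.5, 46.0 and 51.7 TPM in KD+TGF-β1, against 37.3, 33.9 and 34.5 TPM in NC+TGF-β1; log2 change 0.43, SE 0.064, adjusted p = 0.000812). The iron-sensing list had 0 of 6 called in either setting. Export genes had 25% called in both settings, and heme genes 15.4% with TGF-β1 and 7.69% in basal cells. Over all genes the shares were 11.4% with TGF-β1 and 3.66% in basal cells. For a list of 6 genes, 0 called is near these shares.

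The 3′ UTRs of Pcbp1, Pcbp2 and Fech, and those of the members Ncoa4, Acsl4 and Steap3, hold the 7-base word TCTACAC or 1 of 3 other such words. The words were picked earlier in genes that fell on silencing in the same libraries, and 24.5% of genes with a 3′ UTR hold one. Neither tested member with a word, Ncoa4 or Acsl4, was called on silencing. Of 30 tested iron and ferroptosis genes with a word, 2 were higher and 3 lower on silencing with TGF-β1, and 1 was higher and 4 lower in basal cells. Those that fell were Pcbp1, Pcbp2 and Fech in both settings and Chmp5 in basal cells, and those that rose were Ptgs2 in both and Txnrd1 with TGF-β1. Of 81 without a word, 8 were higher and 9 lower with TGF-β1, and 1 was higher and 2 lower in basal cells. Over all genes tested, 11.4% were called with TGF-β1 and 3.66% in basal cells. Because the words came from genes that fell in these libraries, the counts of lower genes are no independent result. The part of the words in the results was not tested.

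Ferroptosis genes other than Acsl4 and Aifm2 were also called on silencing. With TGF-β1, of 16 lipid substrate genes 1 was higher and 6 lower (43.8%, against 11.4% of all genes). Of 6 genes tested from the peroxidation list 2 were higher (33.3%), Sat1 and Ptgs2. Of 23 suppressors 3 were higher and 1 lower (17.4%). In basal cells 1 lipid substrate gene (6.25%) and 1 gene of the peroxidation list, Ptgs2 (16.7%), were higher and 2 suppressors lower (8.7%), against 3.66% of all genes. The cystine transporter Slc7a11 was at 3.02, 2.64 and 2.97 TPM in KD+TGF-β1 and 1.76, 1.94 and 1.8 TPM in NC+TGF-β1 (log2 change 0.66, SE 0.132, adjusted p = 0.0057). Its partner Slc3a2 rose by 0.21 (SE 0.031, adjusted p = 0.00083). Scd1, which makes the monounsaturated lipids that resist peroxidation, fell by 0.24 (SE 0.033, adjusted p = 0.000403), and Lpcat3, which places polyunsaturated chains in phospholipids, by 0.25 (SE 0.057, adjusted p = 0.0118). Ptgs2, a prostaglandin synthase often used as a ferroptosis marker, rose by 0.47 with TGF-β1 (SE 0.085, adjusted p = 0.00307) and by 0.39 in basal cells (SE 0.085, adjusted p = 0.0193). Its basal call was lost without NC replicate 2, KD replicate 2 or KD replicate 3 (adjusted p up to 0.0937), and in the fit of the KD and NC libraries alone (0.124).

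With TGF-β1 over basal, 17 of the 103 rose and 50 fell in KD cells (65%, against 65% of all genes), and 18 rose and 54 fell in NC cells (69.9%, against 64.1%). Falls were more common here than over all genes, of which 33.7% fell and 31.4% rose in KD cells. In NC cells 34.8% of all genes fell and 29.4% rose. Iron uptake genes fell beside Tfrc: 5 of 7 in KD cells, and 4 of 7 in NC cells, where 1 rose (71.4% called in both). The divalent metal transporter Slc11a2 fell by 0.46 in KD cells (SE 0.041, adjusted p = 2.02e-07) and by 0.48 in NC cells (SE 0.041, adjusted p = 1.37e-07). Of 13 heme genes 6 fell and 1 rose in KD cells (53.8%), and 9 fell and 1 rose in NC cells (76.9%), among them Cpox at -1.13 (SE 0.056, adjusted p = 4.34e-10) in KD and -1.26 (SE 0.056, adjusted p = 1.39e-10) in NC. Of 25 genes of mitochondrial iron and iron-sulfur clusters 12 fell in both, with 5 higher in KD (68% called) and 3 in NC (60%). The mitochondrial iron importer Slc25a37 fell by 0.59 (SE 0.04, adjusted p = 1.21e-08) in KD cells and by 0.70 (SE 0.04, adjusted p = 2.02e-09) in NC cells.

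Of 23 ferroptosis suppressors, 12 fell and 4 rose in KD cells (69.6% called, against 65% of all genes), and 14 fell and 3 rose in NC cells (73.9%, against 64.1%). The shares called were near those of all genes, but more of the calls were falls. Over all genes 33.7% fell in KD cells and 34.8% in NC cells, and this lean was not tested. Gpx4, the peroxidase that reduces lipid peroxides, was at 603, 640 and 647 TPM in KD+TGF-β1 and 937, 893 and 909 TPM in KD. It was at 623, 545 and 602 TPM in NC+TGF-β1 and 917, 949 and 906 TPM in NC. It fell beside Aifm2, by 0.50 (SE 0.049, adjusted p = 6.43e-07) in KD cells and by 0.62 (SE 0.05, adjusted p = 7.93e-08) in NC cells. Vkorc1l1, on the same list, rose by 0.60 in KD (SE 0.033, adjusted p = 1.44e-09) and in NC (SE 0.033, adjusted p = 1.39e-09). Slc7a11, higher on silencing with TGF-β1, changed by -1.04 over basal in KD (SE 0.112, adjusted p = 1.75e-06) and by -1.95 in NC (SE 0.119, adjusted p = 3.81e-09). Its partner Slc3a2 changed by -0.36 in KD (SE 0.03, adjusted p = 1.36e-07) and by -0.63 in NC (SE 0.031, adjusted p = 3.42e-10). Of 6 genes tested from the peroxidation list, 3 fell and 1 rose in KD cells (66.7%), and 3 fell and 2 rose in NC cells (83.3%). Cyb5r1, Sat1 and Por fell in both, Cyb5r1 by 0.94 (SE 0.055, adjusted p = 2.42e-09) in KD and by 0.99 (SE 0.055, adjusted p = 1.56e-09) in NC. Of 16 lipid substrate genes, 7 fell and 4 rose in KD cells, and 6 fell and 5 rose in NC cells (68.8% called in both). Acsl3, which activates monounsaturated fatty acids, rose beside Acsl4, by 0.54 (SE 0.051, adjusted p = 4.97e-07) in KD and 0.67 (SE 0.051, adjusted p = 4.34e-08) in NC. Acsl5, another long-chain acyl-CoA synthetase, fell by 0.56 (SE 0.025, adjusted p = 1.28e-10) in KD and by 0.64 (SE 0.025, adjusted p = 3.03e-11) in NC.

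**Figure D5:**
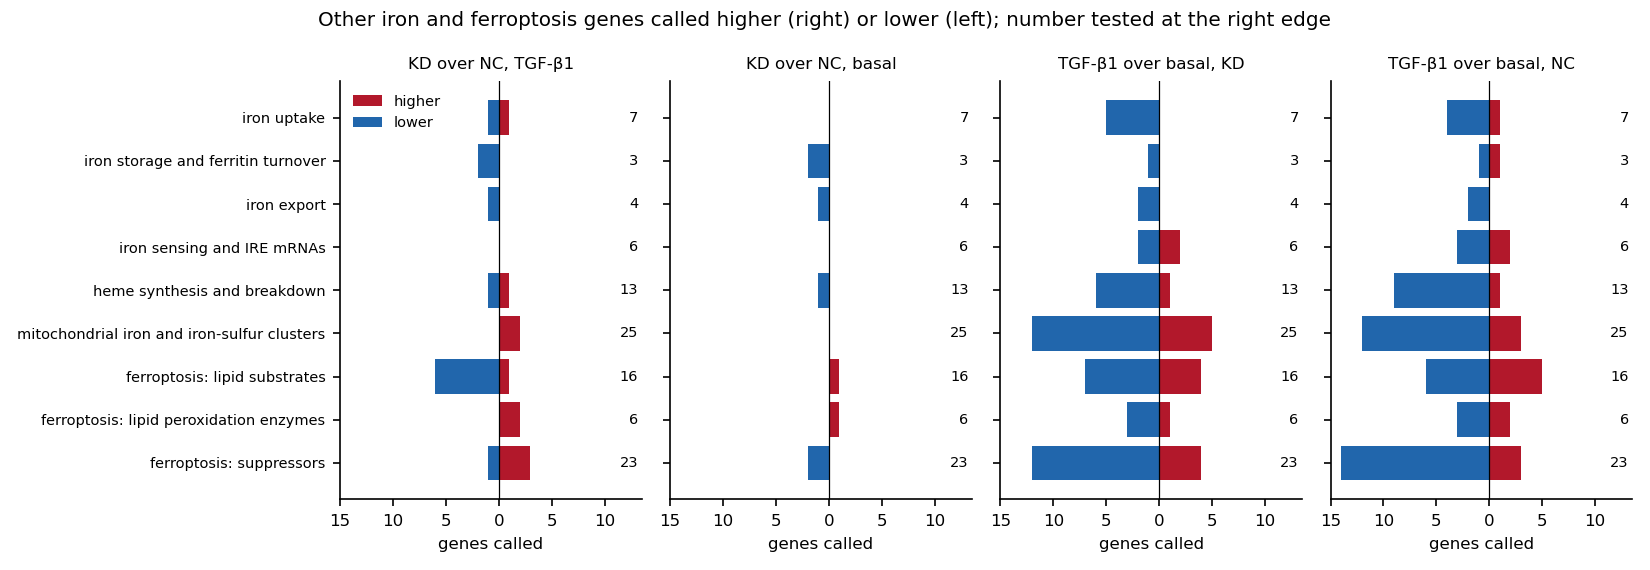
Other genes of the iron and ferroptosis lists called higher (red, to the right) and lower (blue, to the left) in 4 comparisons, at an edgeR adjusted p under 0.05, with the number of genes tested at the right edge. Silencing called 22 of 103 genes with TGF-β1 and 8 in basal cells, and TGF-β1 called 67 in KD and 72 in NC cells, most of them lower.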

How the data were processed

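The deposited data are a table for the basal and another for the TGF-β1 libraries, each listing RefSeq transcripts by Entrez gene. Per the file headers, the authors gave estimated counts, which are not whole numbers, and TPM for each library. RSEM 1.3.1, HISAT2, Bowtie2 and DESeq2 1.34.0 are listed without a role in the submitters' processing notes, with a human build (hg38) for mouse samples. Coordinates here come from GENCODE M21 (GRCm38). The 24 FPKM and normalized count columns were not used.

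Both values were added up over the transcripts of a gene, and the counts were rounded. The fit over genes in both tables used edgeR 4.0.16 under R 4.3.3, with TMM scaling (factors 0.978 to 1.025), filterByExpr with its minimum of 10 counts, 1 coefficient per group over 12 libraries, the quasi-likelihood F-test (8 residual degrees of freedom) and Benjamini-Hochberg adjustment over 11707 genes. The biological coefficient of variation was 4.6%, and libraries of 1 group were further apart than counting noise (chi-square per gene 1.67 to 13.45). The script was tested on simulated data. The 10 genes, the pathway lists and the tests were chosen with earlier results of these data known. Named pathway genes are the called ones with the smallest adjusted p, at most 4 per list and comparison, of which some are printed. The replicate numbers did not pair the libraries. Alternatives were the size factors of DESeq2, no filter on low counts, DESeq2 1.42.0, the replicate number as a block, a fit of the compared groups alone, limma 3.58.1 on log2(TPM + 1) and log2(TPM + 0.1), and leaving out each library. One renal tubular marker is not reported here.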

Additional observations from a re-analysis of the deposited data

Results flagged for a closer look

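Silencing moved 5 of the 103 tested genes of the wider lists differently with TGF-β1 than in basal cells (4.85%, against 0.888% of all genes). Fh1 itself was called too, by the same test of the difference in edgeR's quasi-likelihood fit. Fh1 differed by -0.98 (log2, SE 0.069, adjusted p = 8.18e-06). Its change on silencing was -1.81 with TGF-β1 and -0.83 in basal cells. The part of this unequal silencing in the other 5 calls was not tested. Lcn2, an iron-siderophore carrier and tubular injury marker, differed by -0.64 (SE 0.044, adjusted p = 8.18e-06): it was at 468, 457 and 469 TPM in KD+TGF-β1 and 729, 767 and 755 TPM in NC+TGF-β1, and at 679, 689 and 652 TPM in KD and 679, 698 and 691 TPM in NC. Slc7a11 differed by 0.92 (SE 0.166, adjusted p = 0.0187) and Slc3a2, its partner in cystine uptake, by 0.27 (SE 0.043, adjusted p = 0.0092). The difference was 0.29 for Sat1 (SE 0.054, adjusted p = 0.0206) and -0.31 for Dhcr7 (SE 0.055, adjusted p = 0.0175). The calls of Fh1, Lcn2 and Slc3a2 held in all 12 fits that left out 1 library, those of Dhcr7 in 7, Sat1 in 6 and Slc7a11 in 5. None of the 10 genes of the report is among them.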

How the results depend on the processing

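Among the 9 tested genes, 804 values under the alternatives kept direction and side of the threshold, 11 gained a call, 13 lost one and 18 turned sign, and the cause was not tested. Under silencing in basal cells, leaving out 1 library gave 0 to 2 of the 9 genes called and 212 to 641 of all genes, and the fit of the compared groups alone called 151, against 429. Leave-one-out values turned sign there for Tfrc (-0.104 to 0.154), Ireb2 (-0.312 to 0.014), Acsl4 (-0.144 to 0.153) and Aco1 (-0.037 to 0.045), and Tfrc was at 0.005 in limma with either pseudocount. For silencing with TGF-β1, leave-one-out gave 0 to 1 of the 9 and 787 to 1727 of all genes, DESeq2 called 871, against 1340, and Ncoa4 (-0.048 to 0.009) and Fth1 (-0.054 to 0.006) turned sign. With TGF-β1 over basal in NC cells, 6 to 8 of the 9 were called and Ireb2 (-0.071 to 0.246) and Aco1 (-0.061 to 0.03) turned sign. For the difference of responses, leave-one-out called 38 to 147 of all genes, against 104. Its values turned sign for Tfrc (-0.043 to 0.215), Slc40a1 (-0.047 to 0.061), Acsl4 (-0.075 to 0.221), Ftl1 (-0.104 to 0.05) and Aifm2 (-0.018 to 0.075). In KD cells with TGF-β1, Aco1 lost its call with the size factors of DESeq2 (adjusted p = 0.0952) and with no filter on low counts (0.0567). Ireb2 gained one with those size factors (0.0294), with no filter (0.0442) and in the compared groups alone (1.27e-05).

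The replicate numbers do not pair the libraries: deviations of same-numbered libraries correlated at -0.097 to 0.073. With the replicate block the difference of responses called 54 genes, against 104, and Aco1 lost its call with TGF-β1 in KD cells (adjusted p = 0.0611). It changed no other call among the 9 genes.

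Steap3, at 0 to 13 counts a library, was too shallow to test.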
